A study of Mus musculus with 6 samples.

Results

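The genes described here are 37 genes of the unfolded protein response and the amino acid response, taken by symbol from 54146 genes counted in tumor RNA. All 37 were found in the tables, and all passed the filter on low counts, among 19900 genes tested. They fall into 3 classes, which were treated apart: 15 chaperones and folding genes of the endoplasmic reticulum (ER), 5 stress sensors and transcription factors, and 17 genes of the kind switched on by the transcription factor Atf4. The tumors arose over 3 weeks from 4T1 cells, which derive from a mouse mammary carcinoma, at the orthotopic site in nude mice, which lack a thymus but keep macrophages and natural killer cells. The 2 groups were wild type 4T1 tumors (3 libraries) and tumors of cells with the genotype Mki67-/-, labelled Ki-67-KO (3 libraries), where Mki67 encodes the proliferation antigen Ki-67. Both groups shared host, site and time, and the comparison addresses how the transcriptomes of the tumor pair differ. The labels name neither the number of knockout clones nor the age of the mice, nor do they say whether the libraries of a group came from separate mice. A clone difference therefore cannot be told apart from the knockout, and the p-values measure only the spread between these libraries.

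Proteins that enter the ER are folded there by chaperones such as Hspa5 (also called BiP), by calreticulin and calnexin, which hold glycoproteins through their sugars, and by protein disulfide isomerases. When unfolded proteins build up, the membrane sensors Atf6, Ern1 (IRE1) and Eif2ak3 (PERK) become active. Atf6 and the spliced form of Xbp1, which Ern1 makes, raise chaperone genes. Eif2ak3 phosphorylates the initiation factor eIF2, which slows translation in general and favours that of Atf4. Atf4 raises genes for amino acid synthesis and uptake, and it is also reached by kinases that sense amino acid shortage, so that its targets answer to more than ER stress. Part of this control acts on splicing, translation and phosphorylation, which gene counts do not measure.

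Library totals ranged from 22081970 to 38399826 read pairs in genes, and the knockout libraries were the shallowest. Unmapped pairs made up 31.2% to 33.9% of all pairs in the wild-type libraries and 30.8% in knockout replicate 1, but 54.6% and 52.7% in knockout replicates 2 and 3. The targeted gene checked the labels, with Mki67 at 360, 395 and 325 CPM (gene counts scaled to a common library size with TMM factors) in wild type and at 98.7, 117 and 139 CPM in knockout replicates 1 to 3 (log2 fold change -1.61, SE 0.14, edgeR adjusted p = 6.79e-05). The first principal component (63.2% of the variance) separated the groups, and the second (21.3%) set knockout replicate 2 apart. Markers of several cell types differed between the groups. The summed level of 8 macrophage markers was 4821 to 5626 CPM in wild type and 757 to 847 CPM in knockout tumors, and all 8 fell. The sum of 6 fibroblast markers was 2469 to 3250 CPM and 5078 to 9179 CPM, with 5 higher and 1 lower, and that of 6 epithelial markers was 2814 to 2932 CPM and 5458 to 5831 CPM, with 5 higher. All 6 keratinocyte markers (72.2 to 126 CPM against 718 to 1596 CPM) and all 6 adipocyte markers (52.4 to 88.9 CPM against 194 to 491 CPM) rose. Of 6 neutrophil markers 3 rose (228 to 276 CPM against 312 to 436 CPM), of 6 skeletal muscle markers 5 rose (52.9 to 63.6 CPM against 68.3 to 125 CPM), and of 6 endothelial markers 1 rose (199 to 276 CPM against 188 to 263 CPM). Markers of B and plasma cells, which carry much secretory machinery, summed to 3.39 to 5.80 CPM in wild type and 4.49 to 14.7 CPM in knockout tumors, with 2 of 5 tested markers higher, and Mzb1 and Tnfrsf17 were at 0 in some libraries. Fewer cells of a type and less RNA per cell cannot be told apart in these bulk libraries, and the part of these markers in the results below was not tested.

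Among the 37 genes, 9 rose and 10 fell in knockout tumors at an edgeR adjusted p under 0.05, and 18 did not pass. That is 51.4% of them, where 36.0% of all genes tested passed (17.6% higher and 18.4% lower). The share was 44.2% among genes with a mean of at least 5 CPM, a level that each of the 37 reached. The groups did not overlap for 23 of the 37 (62.2%), against 50.5% of all genes tested and 58.7% of those with at least 5 CPM. The differences were small. Ern1 was the only one of the 37 to differ by 2-fold or more. Of all genes tested, which include those below 5 CPM, 14.6% passed with such a change. The median log2 fold change over the 37 was -0.0022, and their median absolute change was 0.33, against 0.42 over all genes tested and 0.32 over those with at least 5 CPM.

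**Figure D1:**
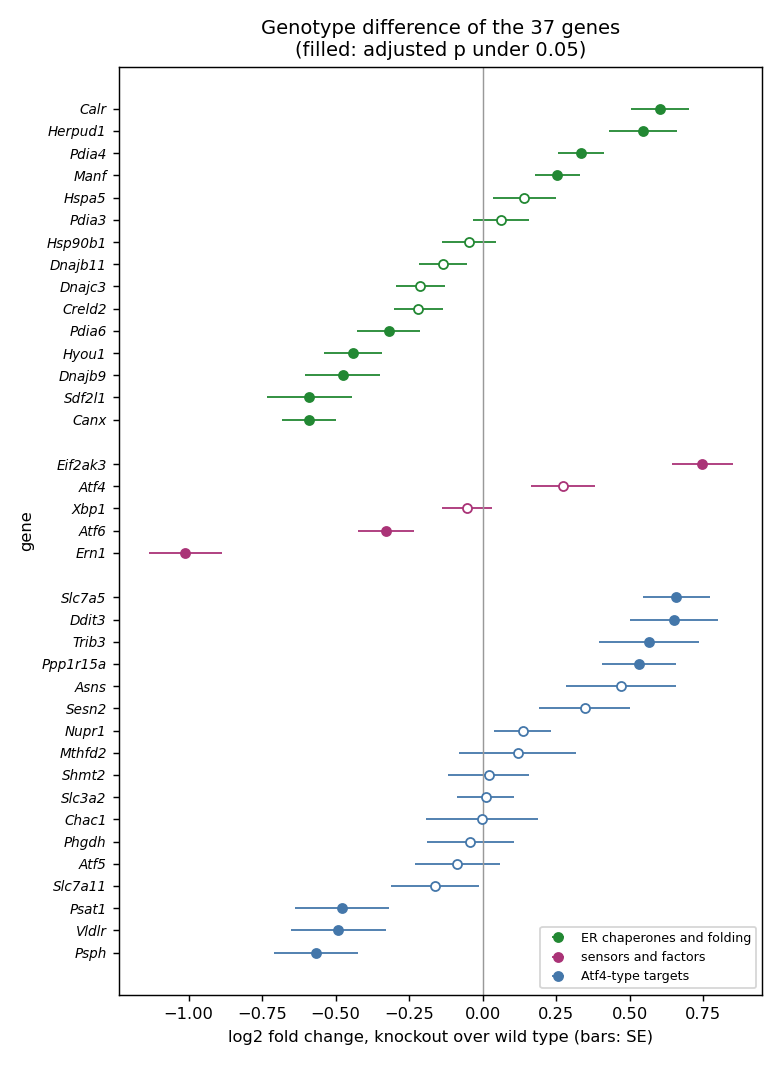
Log2 fold change (knockout over wild type, horizontal axis) of each of the 37 genes, by class, with the standard error as a bar; filled points passed the adjusted p of 0.05. Within each class, genes lay on both sides of 0, from -1.01 for Ern1 to 0.75 for Eif2ak3.

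The ER chaperones and folding genes moved in both directions. Of 15, 4 rose (Calr, Herpud1, Pdia4 and Manf), 5 fell (Canx, Sdf2l1, Dnajb9, Hyou1 and Pdia6) and 6 did not pass. That is a share of 60% called, against 36.0% of all genes and 44.2% of those with at least 5 CPM. Their median log2 fold change was -0.14, where that over all genes tested was 0.05 and that over genes with at least 5 CPM was -0.09. The summed level of the 15 was 5417 to 5680 CPM in wild type and 5455 to 5973 CPM in knockout tumors, so the groups overlapped. Calls over all genes depended on which library was left out, here and below. In the main fit, 3506 genes were higher and 3652 lower. Without wild-type replicates 1, 2 and 3 in turn, 1821, 1981 and 1855 were higher and 2257, 2434 and 2624 lower. Without knockout replicates 1, 2 and 3 in turn, 4330, 4648 and 2601 were higher and 4778, 4653 and 2517 lower. In the fits without wild-type replicates 1, 2 and 3, 2, 1 and 2 of the 15 were called higher and 3, 2 and 3 lower. Without knockout replicate 3, 2 were called lower. With knockout replicate 1 alone against the wild-type libraries, which leaves out those with over 40% unmapped pairs, 2 were higher and 4 lower. In that fit, here and below, the knockout arm is 1 library with no spread of its own, which is assumed to vary like the wild-type libraries, so its calls are no check on the knockout spread.

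Several of these genes carry in their promoters the ER stress response element (ERSE), the sequence through which Atf6 acts. The element consists of CCAAT and CCACG held apart by 9 bases, and it was searched on both strands. In the RefSeq promoter table (GRCm38.p6), which covers 250 bases before and 50 after each gene start and holds 33 of the 37 genes, 7 of 13 ER chaperone and folding genes had a match, against 0.137% of the 27025 genes in the table. None of the 4 sensor and factor genes or the 16 Atf4-type genes in that table had one. The stretches are shown because they let genes that share the element be compared by how they moved. They are written 5′ to 3′ on the strand of the gene, with the fixed letters of the element in capitals. Where the element lies on the other strand, it reads CGTGG, 9 bases and ATTGG.
Calr: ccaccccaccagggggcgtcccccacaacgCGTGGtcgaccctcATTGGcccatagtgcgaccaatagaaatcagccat
Canx: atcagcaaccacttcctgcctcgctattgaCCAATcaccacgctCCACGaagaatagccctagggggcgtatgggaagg
Pdia6: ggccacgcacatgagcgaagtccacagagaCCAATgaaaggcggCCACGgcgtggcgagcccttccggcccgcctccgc
Hspa5: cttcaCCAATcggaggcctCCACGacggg
Hsp90b1: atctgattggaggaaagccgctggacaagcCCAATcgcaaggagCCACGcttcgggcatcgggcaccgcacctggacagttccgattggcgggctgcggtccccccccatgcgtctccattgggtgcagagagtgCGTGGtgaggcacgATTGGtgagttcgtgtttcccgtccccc
Dnajc3: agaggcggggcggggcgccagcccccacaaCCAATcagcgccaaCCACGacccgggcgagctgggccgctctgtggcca
Creld2: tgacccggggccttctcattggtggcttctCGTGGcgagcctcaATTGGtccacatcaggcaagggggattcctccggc

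The Calr stretch lies at chr8:84847045-84847123 (minus strand), that of Canx at chr11:50325770-50325848 (minus strand) and that of Pdia6 at chr12:17266461-17266539 (plus strand). The Hspa5 stretch lies at chr2:34772020-34772048 (plus strand) and that of Hsp90b1, which holds 2 elements on opposite strands, at chr10:86705510-86705686 (minus strand). Dnajc3 has its stretch at chr14:118937797-118937875 and Creld2 at chr15:88819490-88819568, both on the plus strand. For Dnajc3, the bases after the RefSeq start are not in a GENCODE transcript of the gene. All but the Hspa5 stretch lie upstream of the exons that GENCODE M21 annotates, and the Hspa5 element lies in an exon of a longer annotated Hspa5 transcript. The end of the element nearest the gene start lay 47 bases from it in Hspa5 and 144 bases from it in Calr, with the others between. Of the 7 genes with the element, Calr rose, Canx and Pdia6 fell, and Hspa5, Hsp90b1, Dnajc3 and Creld2 did not pass. A match describes the letters in this window and is not evidence of binding.

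Hspa5, the main ER chaperone of the Hsp70 family, had the highest level per length of the 37 genes in both groups, at 325 CPM per kb of exon in wild type and 358 in knockout tumors. Its level was 1300.3, 1399 and 1419.9 CPM in wild type and 1683, 1360.2 and 1500.2 CPM in knockout replicates 1 to 3. Knockout replicate 2 lay among the wild-type libraries, so the groups overlapped, and its log2 difference of 0.14 (SE 0.11) did not pass (edgeR adjusted p = 0.329). It passed once the share of unmapped pairs entered the fit (adjusted p = 0.0499), over a range of 0.0499 to 0.865 across the alternatives. Hsp90b1, the ER member of the Hsp90 family, had a mean of 601 CPM ± 22.004 in wild type, against 583 CPM ± 38.3 in the knockout (SD, n = 3 each, edgeR adjusted p = 0.721). Pdia3, the disulfide isomerase that works with calreticulin and calnexin, was at 903 CPM ± 43.0 and 942 CPM ± 62.7 (SD, n = 3 each; edgeR adjusted p = 0.637). The values of Hspa5, Hsp90b1 and Pdia3 thus overlapped between the groups. Those of Calr, Canx and Pdia6, which are also abundant and are given below, did not.

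Calreticulin and calnexin bind the same sugar on new glycoproteins, Calr as a soluble protein of the ER lumen and Canx as a membrane protein, and their genes moved in opposite directions. Calr (ENSMUSG00000003814, GRCm38 chromosome 8, 84841850 to 84846934, minus strand) was at 591, 593 and 624 CPM in wild type and at 868, 1010 and 870.1 CPM in knockout tumors. Canx (ENSMUSG00000020368, chromosome 11, 50293961 to 50325673, minus strand) was at 616, 616 and 647 CPM in wild type and at 453, 396 and 399.9 CPM in knockout tumors. The groups were separate for both genes. The log2 fold change was 0.60 for Calr (SE 0.10, edgeR adjusted p = 0.00207) and -0.59 for Canx (SE 0.09, edgeR adjusted p = 0.0018), and both passed in all 17 alternatives. Within each library, the ratio of Calr to Canx CPM does not depend on scaling. It was 0.958, 0.963 and 0.965 in wild type, against 1.91, 2.55 and 2.18 in the knockout libraries, so that the spread in wild type was far smaller than the gap between the groups. The difference of the log2 ratio was 1.19. This ratio and the 3 given below were chosen after the values were seen, from genes that had moved apart, so they are descriptions with no test.

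The disulfide isomerase genes split as well. Pdia4 was at 167, 167 and 171 CPM in wild type and at 209, 217 and 209.8 CPM in knockout tumors (log2 fold change 0.33, SE 0.08, edgeR adjusted p = 0.0111). Pdia6 was at 559, 578 and 579 CPM in wild type and at 523, 419.9 and 431 CPM in knockout tumors (log2 fold change -0.32, SE 0.11, edgeR adjusted p = 0.045). In both genes the groups were separate, and for Pdia6 knockout replicate 1 lay nearest to wild type. The ratio of Pdia4 to Pdia6 CPM was 0.288 to 0.299 in wild type and 0.399, 0.517 and 0.487 in the knockout libraries. Creld2, a secreted ER stress gene, was at 50.2 CPM ± 0.682 and 43.1 CPM ± 2.06 (SD, n = 3 each) and did not pass (edgeR adjusted p = 0.0693), but its groups did not overlap and it passed without knockout replicate 2 (adjusted p = 0.0216). Pdia4 lost its call without wild-type replicate 1, 2 or 3 (adjusted p = 0.105, 0.101 and 0.086). Pdia6 lost it without any single library other than knockout replicate 1 (adjusted p = 0.0557 to 0.128), and its log2 fold change was -0.15 with the unmapped share as a covariate and -0.19 with knockout replicate 1 alone against wild type.

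Hspa5 is assisted by J-domain proteins, by the exchange factor Hyou1 and by Sdf2l1, and the genes of these partners lay lower in knockout tumors or did not pass. Sdf2l1 was at 28.7, 32.6 and 27.8 CPM in wild type and at 23.9, 17.1 and 18.0 CPM in knockout tumors (log2 fold change -0.59, SE 0.14, edgeR adjusted p = 0.0139). Dnajb9, a J-domain protein that keeps Ern1 inactive together with Hspa5, was at 44.0, 40.02 and 49.4 CPM and at 37.1, 29.2 and 29.6 CPM (log2 fold change -0.48, SE 0.13, edgeR adjusted p = 0.0195). Hyou1 was at 167, 179 and 172 CPM and at 120.2, 143 and 118 CPM (log2 fold change -0.44, SE 0.10, edgeR adjusted p = 0.00907). The groups were separate for these 3 genes, with knockout replicate 1 the nearest to wild type for Sdf2l1 and Dnajb9 and knockout replicate 2 for Hyou1. The J-domain genes Dnajb11 (79.1 CPM ± 0.9 against 72.0 CPM ± 3.83, SD, n = 3 each) and Dnajc3 (129 CPM ± 3.14 against 111 CPM ± 6.52) also had separate groups but did not pass (edgeR adjusted p = 0.222 and 0.078), and Dnajc3 passed without knockout replicate 1 (adjusted p = 0.0169). Dnajb9 lost its call without replicate 1 or 3 of wild type or replicate 3 of the knockout (adjusted p = 0.0583, 0.0772 and 0.0682). Sdf2l1 lost it without wild-type replicate 2 or knockout replicate 3 (adjusted p = 0.0551 and 0.0507), and Hyou1 without wild-type replicate 2 (adjusted p = 0.0532).

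Herpud1, a membrane protein that takes part in the removal of misfolded proteins from the ER, was at 45.5, 41.5 and 42.4 CPM in wild type and at 52.9, 68.2 and 67.7 CPM in knockout tumors (log2 fold change 0.54, SE 0.12, edgeR adjusted p = 0.00723). Every knockout library lay above every wild-type library, but knockout replicate 1 lay closer to wild type than to the other knockout libraries. Against wild type, knockout replicate 1 alone gave a log2 fold change of 0.23, and leaving out wild-type replicate 2 ended the call (adjusted p = 0.0542). Manf, a secreted protein that protects cells under ER stress, was at 124, 122 and 127 CPM in wild type and at 146, 147 and 152 CPM in knockout tumors (log2 fold change 0.25, SE 0.08, edgeR adjusted p = 0.0328). Its groups were separate, but its call was lost without any single library other than knockout replicate 1 (adjusted p = 0.0676 to 0.204), and the log2 fold change was 0.16 with knockout replicate 1 alone against wild type. Exons of other genes cover 9.25% of the exonic bases of Manf and 15.7% of those of Hsp90b1, and pairs that touch exons of more than 1 gene were not counted.

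**Figure D2:**
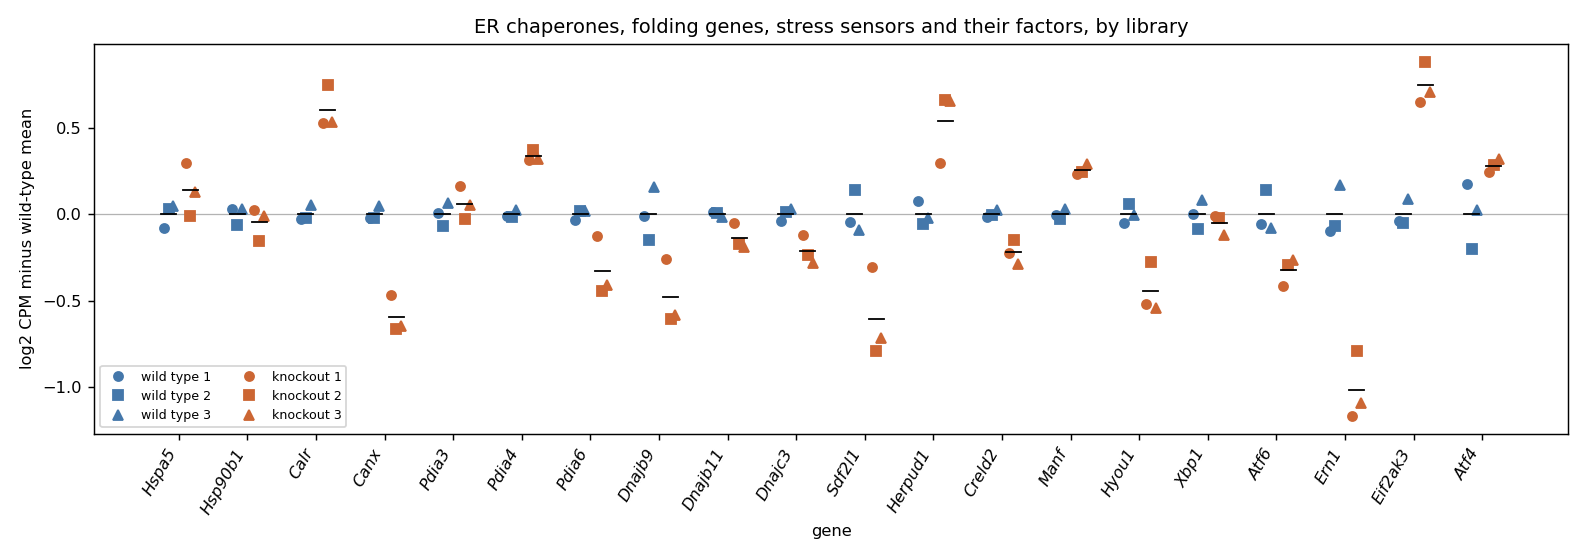
Log2 CPM minus the wild-type mean (vertical axis) in each of the 6 libraries for the ER chaperones and folding genes, the 3 sensors, Xbp1 and Atf4; blue is wild type, orange is knockout, shapes mark the replicate number and short lines mark group means. Calr and Canx lie apart from wild type in opposite directions, and Ern1 and Eif2ak3 are the farthest from 0.

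The 3 sensors of the unfolded protein response did not move together. Eif2ak3 rose while Ern1 and Atf6 fell, and neither Xbp1 nor Atf4 passed. Thus 3 of these 5 genes were called, against 36.0% of all genes and 44.2% of those with at least 5 CPM. Ern1 (ENSMUSG00000020715, chromosome 11, 106394650 to 106487852, minus strand), the kinase and nuclease that splices Xbp1, was at 84.2, 85.7 and 101 CPM in wild type and at 40.1, 52.0 and 42.3 CPM in knockout tumors. This was 2.02-fold lower (log2 fold change -1.01, SE 0.12, edgeR adjusted p = 0.00049). Eif2ak3 (ENSMUSG00000031668, chromosome 6, 70844515 to 70905245, plus strand), the eIF2 kinase, was at 19.8, 19.6 and 21.6 CPM in wild type and at 31.8, 37.4 and 33.2 CPM in knockout tumors, 1.68-fold higher (log2 fold change 0.75, SE 0.10, edgeR adjusted p = 0.000989). Both sets of groups were separate, and both calls held in all 17 alternatives. Exons of an antisense transcript, Gm43292, cover 8.05% of the exonic bases of Eif2ak3, and pairs there were not counted for either gene. Per kb of exon, Ern1 stood at 11.05 CPM and Eif2ak3 at 3.37 CPM in wild type, and in knockout tumors they stood at 5.48 and 5.67 CPM. The ratio of Eif2ak3 to Ern1 CPM was 0.235, 0.229 and 0.214 in wild type, against 0.794, 0.720 and 0.784 in the knockout libraries (log2 difference 1.76).

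Atf6, which is cleaved under stress to release a transcription factor, was at 104, 119.7 and 103 CPM in wild type and at 81.4, 88.8 and 90.4 CPM in knockout tumors. The groups were separate (log2 fold change -0.33, SE 0.09, edgeR adjusted p = 0.0263), and the call was lost without wild-type replicate 1 or 2 or knockout replicate 3 (adjusted p = 0.0719, 0.123 and 0.0587), which left Ern1 as the one sensor lower. Xbp1 was at 172, 162 and 182 CPM in wild type and at 171, 169 and 158 CPM in knockout tumors, with overlapping groups (edgeR adjusted p = 0.653). The gene counts do not separate spliced from unspliced Xbp1. Atf4 was at 286, 221 and 259 CPM in wild type and at 300.4, 309 and 316 CPM in knockout tumors. All knockout libraries lay above all wild-type libraries, but its log2 difference of 0.27 (SE 0.11) did not pass (edgeR adjusted p = 0.0793). It passed with library totals in place of TMM (adjusted p = 0.0424), with the stricter filter (adjusted p = 0.0337) and with a stranded column (adjusted p = 0.0457), over a range of 0.0337 to 0.433.

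The Atf4-type targets moved in both directions, and most did not pass. Of 17, 4 rose (Slc7a5, Ddit3, Trib3 and Ppp1r15a), 3 fell (Psph, Vldlr and Psat1) and 10 did not pass. That is a share of 41.2% called, above the 36.0% of all genes but below the 44.2% of those with at least 5 CPM. Their median log2 fold change was 0.02. Their groups did not overlap for 7 of 17 (41.2%), against 50.5% of all genes tested and 58.7% of those with at least 5 CPM. Over all genes tested, 17.6% rose and 18.4% fell, and of 11620 with at least 5 CPM, 2052 rose and 3080 fell. Of the 7 regulators among the 17, 3 rose, and of the 6 enzymes of amino acid and one-carbon synthesis, 2 fell. The rest of each group did not pass, and no test was run between them. The number of the 17 called higher was 1 without wild-type replicate 2 or 3. Without wild-type replicate 1, Vldlr, Psat1 and Psph lost their calls by edgeR (adjusted p = 0.134, 0.136 and 0.0578), with log2 fold changes of -0.50, -0.28 and -0.47, and 1 gene was called lower without knockout replicate 3.

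Genes that Atf4 controls often carry a C/EBP-ATF response element, searched here as TTGCATCA on both strands. A match was found in the RefSeq promoters of 4 of 16 Atf4-type genes, 1 of 13 ER chaperone and folding genes (Herpud1) and 1.03% of the 27025 genes in the table. The stretches below show them with the element in capitals, because these genes differed in whether they moved.
Slc7a11: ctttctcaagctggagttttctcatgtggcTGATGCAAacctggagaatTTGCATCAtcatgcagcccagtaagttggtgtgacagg
Chac1: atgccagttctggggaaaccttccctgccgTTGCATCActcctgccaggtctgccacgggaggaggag
Nupr1: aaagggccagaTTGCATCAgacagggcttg
Vldlr: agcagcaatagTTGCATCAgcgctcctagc
Herpud1: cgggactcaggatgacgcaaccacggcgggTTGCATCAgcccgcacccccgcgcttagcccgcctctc

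The Slc7a11 stretch (chr3:50443623-50443709, minus strand) holds 2 copies on opposite strands, with the one on the other strand reading TGATGCAA. The Chac1 stretch lies at chr2:119351019-119351086 and that of Herpud1 at chr8:94386287-94386354, both on the plus strand and upstream of annotated exons. Those of Nupr1 (chr7:126625562-126625591, minus strand) and Vldlr (chr19:27216809-27216838, plus strand) lie in exons of longer annotated transcripts of the same genes. Of these 5 genes, Herpud1 rose, Vldlr fell, and Slc7a11, Chac1 and Nupr1 did not pass. A form of the element written TGATGNAAT, which overlaps the first, was found in 1 of the 16 genes (Nupr1) and in 1.08% of all genes in the table.

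Ddit3, the transcription factor CHOP, was at 16.1, 11.7 and 11.9 CPM in wild type and at 19.1, 21.4 and 21.8 CPM in knockout tumors (log2 fold change 0.65, SE 0.15, edgeR adjusted p = 0.0105). Trib3, a pseudokinase that restrains Atf4, was at 34.3, 20.7 and 25.0 CPM and at 41.4, 38.8 and 38.1 CPM (log2 fold change 0.56, SE 0.17, edgeR adjusted p = 0.0314). Ppp1r15a, the subunit GADD34 that directs the removal of phosphate from eIF2, was at 25.0, 23.5 and 22.2 CPM and at 29.1, 39.0 and 34.0 CPM (log2 fold change 0.53, SE 0.12, edgeR adjusted p = 0.0112). All 3 had separate groups, and for Ddit3 and Trib3 wild-type replicate 1 lay nearest to the knockout libraries. Ddit3 lost its call without wild-type replicate 2 or 3 (adjusted p = 0.0659 and 0.0702), Trib3 without wild-type replicate 2 or 3 or knockout replicate 1 or 3 (adjusted p = 0.0587 to 0.153), and Ppp1r15a without wild-type replicate 1, 2 or 3 (adjusted p = 0.0559 to 0.0692). With knockout replicate 1 alone against wild type, the log2 fold change of Ppp1r15a was 0.24. Exons of another entry named Ddit3 on the same strand and of the antisense genes Mars and Gm4189 cover 10.9% of the exonic bases of Ddit3. Of the entries with this name, the values given are those of the entry with the highest count.

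The other regulators did not pass. Chac1, an enzyme that breaks down glutathione, was at 12.1, 7.57 and 8.90 CPM in wild type and at 8.30, 10.3 and 9.94 CPM in knockout tumors (edgeR adjusted p = 0.994). Atf5, a transcription factor related to Atf4, was at 117, 80.5 and 107 CPM and at 105, 95.4 and 85.9 CPM (edgeR adjusted p = 0.660), and in both genes the knockout libraries lay within the wild-type range. Sesn2, which restrains mTORC1 when leucine is short, was at 14.4, 13.0 and 12.2 CPM and at 13.4, 19.5 and 17.5 CPM (edgeR adjusted p = 0.113). Knockout replicate 1 lay within the wild-type range, and without it Sesn2 passed (log2 fold change 0.48, adjusted p = 0.0144). Nupr1, a small stress-induced chromatin protein, was at 142 CPM ± 12.4 and 156 CPM ± 8.5 (SD, n = 3 each; edgeR adjusted p = 0.295).

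The enzymes that make serine from a glycolytic intermediate did not move as a unit. Phgdh, which carries out the first step, was at 165, 140.2 and 128 CPM in wild type and at 171, 127 and 123 CPM in knockout tumors, with overlapping groups (edgeR adjusted p = 0.844). Psat1, the second enzyme, was at 129, 86.3 and 85.4 CPM and at 76.3, 71.8 and 68.1 CPM (log2 fold change -0.48, SE 0.16, edgeR adjusted p = 0.0462). Psph, the last enzyme, was at 39.1, 30.4 and 31.5 CPM and at 24.3, 19.1 and 24.8 CPM (log2 fold change -0.57, SE 0.14, edgeR adjusted p = 0.0151). Both Psat1 and Psph had separate groups, and wild-type replicate 1 was the highest library of the 6 for each. Without it, the log2 fold change of Psat1 was -0.28 (adjusted p = 0.136) and that of Psph was -0.47 (adjusted p = 0.0578), and Psat1 was also lost without knockout replicate 3 (adjusted p = 0.141). Exons of Cct6a, on the opposite strand, cover 10.4% of the exonic bases of Psph.

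Shmt2 and Mthfd2 are mitochondrial enzymes that carry the one-carbon unit of serine into folate. Shmt2 was at 119, 92.2 and 94.6 CPM in wild type and at 89.7, 120.2 and 99.95 CPM in knockout tumors (edgeR adjusted p = 0.919), and Mthfd2 was at 38.3, 21.4 and 27.5 CPM and at 35.8, 28.9 and 29.99 CPM (edgeR adjusted p = 0.660). The groups overlapped for both. Asns, asparagine synthetase, was at 57.8, 33.3 and 40.4 CPM in wild type and at 54.6, 65.6 and 62.0 CPM in knockout tumors. Wild-type replicate 1 lay above knockout replicate 1, and its log2 difference of 0.47 (SE 0.19) did not pass (edgeR adjusted p = 0.0795), while without wild-type replicate 1 it was 0.70 and passed (adjusted p = 0.0178). Asns also passed with no filter and with the stricter filter (adjusted p = 0.0428 and 0.0470). Vldlr, a lipoprotein receptor raised by Atf4 under ER stress, had the lowest level per length of the 37 genes. It was at 7.56, 6.49 and 8.12 CPM in wild type and at 4.65, 5.21 and 5.94 CPM in knockout tumors (log2 fold change -0.49, SE 0.16, edgeR adjusted p = 0.0431). Its call was lost without any single library other than knockout replicate 2 (adjusted p = 0.0529 to 0.134).

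Slc3a2 is the heavy chain that brings amino acid exchangers to the cell surface, Slc7a5 (LAT1), which imports leucine and other large neutral amino acids, and Slc7a11 (xCT), which imports cystine. The level of the heavy chain was 186, 169 and 177 CPM in wild type and 161, 194 and 180.4 CPM in knockout tumors, with overlapping groups (log2 fold change 0.0096, SE 0.10, edgeR adjusted p = 0.946). Slc7a5 (ENSMUSG00000040010, chromosome 8, 121881150 to 121907694, minus strand) was at 110.1, 83.8 and 96.3 CPM in wild type and at 144, 163 and 151 CPM in knockout tumors. Its groups were separate, and it rose 1.58-fold (log2 fold change 0.66, SE 0.11, edgeR adjusted p = 0.00285), a call that held in all 17 alternatives. Calr and Herpud1, which rose by 0.60 and 0.54 on the log2 scale, also lie on chromosome 8, and no other of the 37 genes does. The part of the shared chromosome in these changes was not tested. Slc7a11 was at 26.9, 25.7 and 23.1 CPM and at 26.4, 17.9 and 23.4 CPM and did not pass (log2 fold change -0.16, SE 0.15, edgeR adjusted p = 0.423). The ratio of Slc7a5 to Slc3a2 CPM was 0.593, 0.495 and 0.543 in wild type and 0.894, 0.840 and 0.836 in knockout libraries (log2 difference 0.66).

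**Figure D3:**
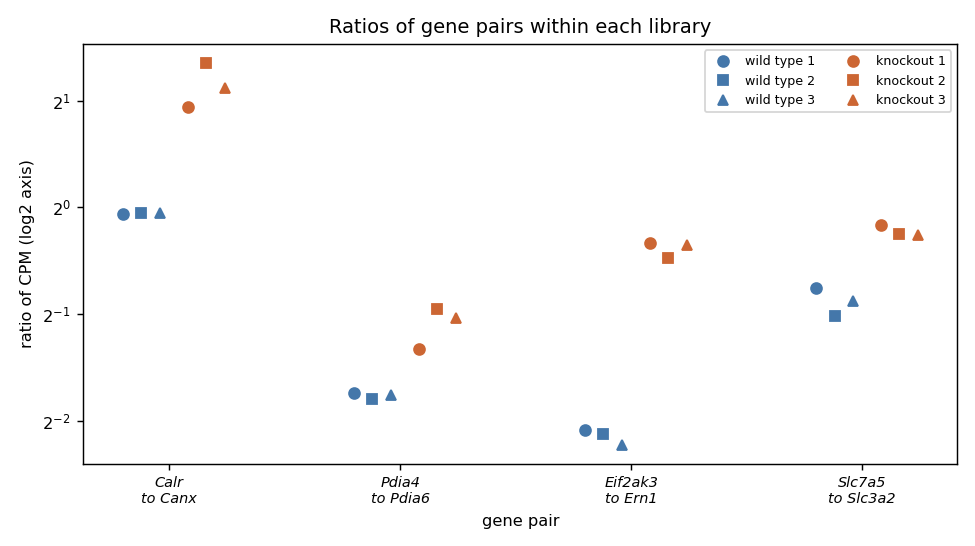
Ratio of CPM between the genes of 4 pairs (vertical axis, log2 scale) within each of the 6 libraries; blue is wild type, orange is knockout and shapes mark the replicate number. The pairs were chosen after the values were seen, so the separation of the groups follows from the choice. The wild-type values of Calr to Canx, 0.958 to 0.965, are the closest together.

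The Atf4-type targets varied more among the wild-type libraries than the ER genes did, and with another library highest. Wild-type replicate 1 was the highest of the 3 wild-type libraries for 16 of the 17, the exception being Vldlr, while it was the highest for 35.2% of all genes with at least 5 CPM. Among the 15 ER chaperones and folding genes, wild-type replicate 3 was the highest for 11 (73.3%), against 37.1% of all genes with at least 5 CPM. For the Atf4-type targets the count was also 16 with RLE size factors, with library totals and with a stranded column. The highest wild-type level was 1.79 times the lowest for Mthfd2, 1.74 times for Asns, 1.66 times for Trib3 and 1.60 times for Chac1. Over the 17 genes the median coefficient of variation in wild type was 14.1%, against 3.09% over the 15 ER chaperones and folding genes and 5.36% over all genes with at least 5 CPM. In the knockout libraries the medians were 11.3%, 7.72% and 12.5% in the same order, and 6, 8 and 3 of the 17 Atf4-type targets were highest in knockout replicates 1, 2 and 3. The same was seen in genes outside the 37. Wild-type replicate 1 was the highest wild-type library for 11 of 13 genes of aminoacyl-tRNA synthetases and tRNA export, enzymes that load tRNAs with amino acids, and for 16 of 25 other Atf4 targets. That library had 33.9% unmapped pairs, against 31.2% to 32.4% in the other wild-type libraries. Of its uniquely mapped pairs, 10.1% lay outside exons, against 9.24% to 11.1% in the others. Its macrophage marker sum was 5626 CPM, against 4821 and 4985 CPM. The part of these shares and of this sum in the result was not tested.

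**Figure D4:**
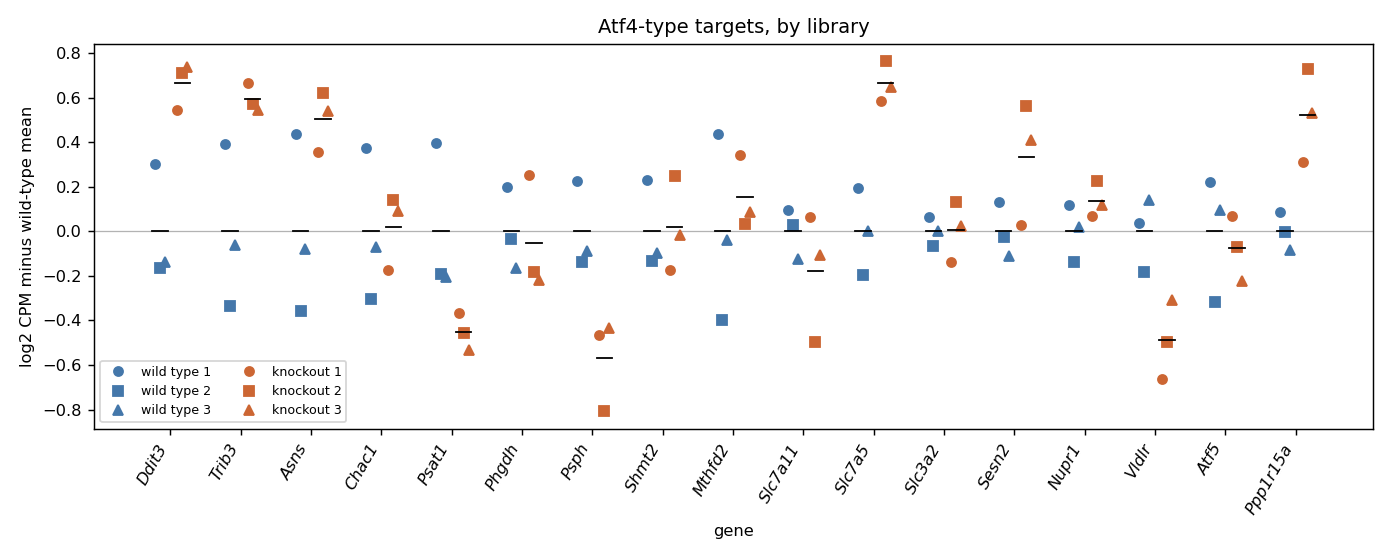
Log2 CPM minus the wild-type mean (vertical axis) in each of the 6 libraries for the 17 Atf4-type targets; blue is wild type, orange is knockout, shapes mark the replicate number and short lines mark group means. Wild-type replicate 1 (blue circles) is the highest wild-type library for every gene shown but Vldlr, and the groups are separate for Ddit3, Trib3, Psat1, Psph, Slc7a5, Vldlr and Ppp1r15a.

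Other genes of these pathways also moved both ways. Of 35 further ER folding, degradation and export genes, 4 rose and 8 fell, and 7 rose with library totals or the stricter filter. The share called in the main fit was 34.3%, against 36.0% of all genes and 44.2% of those with at least 5 CPM. Ero1l, the oxidase that drives disulfide formation through P4hb, was at 175, 155 and 169 CPM in wild type and at 381, 316 and 367 CPM in knockout tumors (log2 fold change 1.09, SE 0.10, edgeR adjusted p = 0.00012), and P4hb itself rose by 0.43 on the log2 scale (edgeR adjusted p = 0.00535). Fkbp11, a prolyl isomerase of secretory cells, went from 26.5, 22.3 and 25.2 CPM to 4.10, 4.86 and 4.13 CPM (log2 fold change -2.50, SE 0.13, edgeR adjusted p = 6.58e-06). Uggt1, which marks misfolded glycoproteins for another round with calreticulin and calnexin, was at 329, 330.5 and 326 CPM and at 205, 229 and 219.98 CPM (log2 fold change -0.59, SE 0.08, edgeR adjusted p = 0.00107). Edem3, which trims the sugars of proteins bound for degradation, and Sec24d, a coat protein of vesicles that leave the ER, fell by 0.76 and 0.67 on the log2 scale (edgeR adjusted p = 0.00136 and 0.000649). Of the isomerase genes Pdia5 and Txndc5, which rose by 0.55 and 0.26, each lost its call without wild-type replicate 1 or 2 (adjusted p = 0.111 to 0.252), Txndc5 also without wild-type replicate 3 or knockout replicate 2 or 3 (adjusted p = 0.118 to 0.204), and P4hb without wild-type replicate 3 (adjusted p = 0.0569). The count of higher genes was 2 without wild-type replicate 1, 2 or 3, and that of lower genes was 5 without wild-type replicate 3 and 16 without knockout replicate 1.

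Among 26 further Atf4 targets, 25 were tested, 9 rose and 7 fell, 64% against 36.0% of all genes and 44.2% of those with at least 5 CPM. Of 7 amino acid transporter genes among these targets, 3 fell, 1 rose, and Slc1a5, Slc7a1 and Slc7a3 did not pass (log2 fold change -0.03, -0.28 and -0.44). Slc38a2, a carrier of neutral amino acids, went from 396, 371 and 393 CPM to 239.7, 239.6 and 249.8 CPM (log2 fold change -0.67, SE 0.08, edgeR adjusted p = 0.00049), and Slc1a4 and Slc6a9, which carry serine and alanine and glycine, fell by 0.83 and 1.09 on the log2 scale. Slc43a1, a carrier of branched-chain amino acids, rose from 1.16, 1.14 and 1.26 CPM to 2.83, 4.78 and 3.40 CPM (log2 fold change 1.63, SE 0.25, edgeR adjusted p = 0.00159). Of the enzymes, Mthfd1l, in mitochondrial folate metabolism, and Pycr1, in proline synthesis, rose by 0.57 and 0.94, and Cth, which makes cysteine, fell by 1.47 on the log2 scale (edgeR adjusted p = 0.000834, 0.00804 and 0.000351). Atf3, a factor downstream of Atf4, rose by 0.61 (edgeR adjusted p = 0.00285). Exons of other genes cover 30.2% of the exonic bases of Slc6a9. The count of higher genes was 5 without wild-type replicate 1, 2 or 3, and these 8 named genes passed in all 17 alternatives.

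Of the 13 genes of aminoacyl-tRNA synthetases and tRNA export, 1 rose (Gars) and 4 fell. That is 38.5%, against 36.0% of all genes and 44.2% of those with at least 5 CPM. Xpot, which exports tRNA from the nucleus, and Yars, the tyrosine enzyme, fell by 0.49 and 0.42 on the log2 scale (edgeR adjusted p = 0.00527 and 0.0109). Yars, Cars and Mars lost their calls without wild-type replicate 1 (adjusted p = 0.0694, 0.110 and 0.210), and 1 gene was lower then, while Gars lost its call when any single library was left out (adjusted p = 0.0641 to 0.275). Cars was also lost without knockout replicate 3 (adjusted p = 0.0775), and Mars without any single library other than knockout replicate 2, and 2 genes were lower without knockout replicate 3. Of 15 genes of eIF2, its kinases other than Eif2ak3, its exchange factor and proteins that act on these, 2 were called. That is 13.3%, against 36.0% of all genes and 44.2% of those with at least 5 CPM. Both called genes belong to the last kind: Nck1, an adaptor protein, and Ppp1r15b, which fell by 0.75 and 0.31 on the log2 scale (edgeR adjusted p = 0.00477 and 0.0263). Ppp1r15b, the constitutive partner of the same phosphatase as Ppp1r15a, thus differed in the direction opposite to Ppp1r15a, and it lost its call without wild-type replicate 1, 2 or 3 or knockout replicate 3 (adjusted p = 0.0537 to 0.124). Without knockout replicate 1 or 2, 6 of these 15 genes were lower, and 1 was lower without any single one of the other 4 libraries.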

How the data were processed

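The data are 6 tumor RNA libraries (3 wild type, 3 Ki-67-KO). The deposited tables hold unnormalized whole-number counts of read pairs per Ensembl gene, and the submitters' processing notes list STAR 2.6.0c, FastQC, DESeq2 and the build GRCm38. The row layout is that of STAR's gene counts, so pairs that map to several places or overlap exons of several genes were not counted. The first 4 rows name no gene (45.3% to 66.5% of all pairs) and were left out of library sizes and tests. The stranded columns held equal shares (50.1% to 50.2% in the first), so the unstranded column was used, and a gene and its antisense partner cannot be separated. Symbols came from GENCODE M21, which matched 54079 of 54146 identifiers. Genes with a pseudogene copy (Calr, Phgdh) were counted by unique pairs.

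The main test was the quasi-likelihood F test of edgeR 4.0.16 (R 4.3.3; filterByExpr, TMM, glmQLFit, glmQLFTest), with Benjamini-Hochberg adjustment over 19900 genes and a threshold of 0.05. SE is the absolute log2 fold change over the square root of F. The steps were tested on simulated data. Groups and replicate numbers came from the sample titles. The depth of 22081970 to 38399826 pairs sets a floor of 3 counts at 0.0781 to 0.136 CPM, which covers counting error only. The alternatives were RLE factors, library totals, DESeq2 1.42.0, no filter, a filter at 1 CPM, a stranded column, a robust fit, the replicate block, 2 covariates (unmapped share, share outside exons) and each library left out. The comparison of the libraries under 40% unmapped was added after the data were seen. The genes, classes, lists and tests were chosen with earlier results of these data known. Named from the lists were up to 4 genes per direction with the smallest p.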

Additional observations from a re-analysis of the deposited data

How the results depend on the processing

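Calls for Calr, Canx, Ern1, Eif2ak3 and Slc7a5 held in all 17 alternatives, and the other 14 of the 19 calls were lost in at least 1. The cause of the changes below was not tested. Over all genes, 2333 were higher with the unmapped share as a covariate and 2237 lower with the share outside exons. With a library left out these counts ran from 1821 to 4648 and from 2257 to 4778, and library totals gave 3976 higher and 3191 lower. The labels do not pair the replicate numbers, and deviations of same-numbered libraries correlated at 0.0529, -0.212 and -0.243. The replicate block gave 3082 higher and 3580 lower genes, and under it Pdia6, Manf and Vldlr lost their calls (adjusted p = 0.0514, 0.0634 and 0.0623).

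Of the ER genes, 2 were higher with DESeq2, with no filter and with knockout replicate 1 alone (an arm of 1 library, assumed to vary like wild type), and 2 and 1 were lower with the unmapped and outside-exon covariates. Their median was -0.078 with library totals, -0.19 with DESeq2, -0.22 with no filter, -0.069 with the stricter filter and -0.063 with the unmapped covariate. With a library left out, 1 to 4 were higher, 2 to 6 lower, and the median was -0.20 to -0.11. Of the sensors and factors, 2 were higher with library totals, the stricter filter and the stranded column, and 1 lower with library totals, the stranded column and the outside-exon covariate. Their median was -0.14 with no filter and 0.04 with the stranded column, and 1 to 2 were lower with a library left out. Of the Atf4-type targets, 1 was higher with the unmapped covariate and with knockout replicate 1 alone. Of them, 1 was lower with library totals, the stricter filter, the stranded column and each covariate. With a library left out, 1 to 4 were higher, 0 to 3 lower and the median was -0.070 to 0.17. The 0 came from edgeR without wild-type replicate 1, where 3 were lower at an unadjusted p under 0.05 and DESeq2 was not run.

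Signs reversed only for genes that did not pass. Log2 fold changes became 0.014, 0.022, 0.027 and 0.020 for Hsp90b1 and 0.0042, 0.012 and 0.044 for Xbp1 (totals, stricter filter, stranded column and, for Hsp90b1, the unmapped covariate), with 0.0076 for Xbp1 under the outside-exon covariate. Pdia3 was at -8.5e-05 with DESeq2, -0.026 with no filter and -0.0014 without wild-type replicate 2. Chac1 was at 0.057 (totals), 0.062 (stricter filter), 0.079 (stranded), 0.018 (block) and 0.042 (outside-exon covariate), and Phgdh at 0.013, 0.025 and 0.071 under the first 3 and 0.18 under the unmapped covariate and 0.18 with knockout replicate 1 alone. Shmt2 was at -0.033, -0.056, -0.18 and -0.25 and Slc3a2 at -0.047, -0.071, -0.13 and -0.20 (DESeq2, no filter, unmapped covariate, knockout replicate 1 alone). Slc7a11 was at 0.034 and Atf5 at 0.018 with the unmapped covariate, Atf5 at 0.024 with the outside-exon covariate, and Sesn2 at -0.039 with knockout replicate 1 alone. With a library left out, the range was -0.17 to 0.18 for Chac1, -0.22 to 0.038 for Phgdh, -0.15 to 0.12 for Shmt2, -0.087 to 0.34 for Mthfd2, -0.101 to 0.0704 for Slc3a2, -0.25 to 0.0019 for Atf5 and -0.0014 to 0.062 for Pdia3.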

Other observations

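The promoter elements were also counted in genes outside the 37. The ER stress response element was found in the promoter windows of 37 genes of the RefSeq table, and 15 genes with it that are not among the 37 were tested. Of these, 3 rose and 3 fell (6 of 15 called by edgeR against 36.0% of all genes tested), with a median log2 fold change of 0.05. The C/EBP-ATF element was found in 279 genes. Of the 95 tested outside the 37, 17 rose and 24 fell (43.2% called), with a median log2 fold change of -0.06. These counts are descriptions and carry no test.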
